A study of Arabidopsis thaliana with 12 samples.

Results

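The transcriptome of Arabidopsis thaliana seedlings of the accession Col-0, the wild type of the study, was compared between 4 h of simulated shade and white light. The libraries were chosen by their labels: 3 of Col-0 in shade and 3 of Col-0 in white light, 6 of the 12 in the series. The other libraries came from bbx28-5, a line named for the B-box gene BBX28, whose lesion is not described in the sources used here, and those 6 entered only the shared estimate of the spread and the comparison of the 2 genotypes at the end. All seedlings were raised for 2 days at 22 °C on agar and water, with 10 h of light and 14 h of darkness a day, and whole seedlings were taken after the 4 h exposure. In white light they received a photosynthetically active radiation of 90 µmol per square metre and second, of which red was 9.13, blue 8.1 and far-red 8.3. In simulated shade the radiation was 20, with red at 0.8, blue at 1.3 and far-red at 5.5, so that the ratio of red to far-red fell from 1.1 to 0.145. The amount of light, its blue part and the red to far-red ratio changed together, and responses to them cannot be told apart here. The replicates are labelled as biological, and whether they were separate sowings or plates is not stated.

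Plants read shade with phytochromes, receptors whose active form is lost when far-red light outweighs red, which frees the phytochrome-interacting factors, bHLH proteins that switch on elongation genes. Shade also lowers photosynthesis, and a shortage of sugar activates the kinase SnRK1, which is known to raise genes that burn amino acids and lipids and to lower genes of biosynthesis and growth. Very young seedlings still draw on seed lipid while their first leaves are formed. The response of shade marker genes is background here, and the account below follows enzymes, transporters and regulators.

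The 6 libraries held 12.02 to 14.3 M counts, and 3 counts within a library stood for 0.200 to 0.239 CPM (counts per 1e+06 counts of a TMM-scaled library). The floor used for a count of 0 was 3 counts over all libraries of a group together. Libraries of one group were alike, and their log2 CPM correlated across genes at 0.9867 or more. Per the sources used here, the strand setting of the counting is not given, so reads of a gene and of an overlapping gene on the opposite strand cannot be told apart. Among the genes named below, 11 overlap another tested gene by at least 200 bases, and the level of the other gene is given beside 6 of these. Between 32 and 112 genes of a library lay at least 2-fold from the mean of the other libraries of its group, and the highest number was in white light replicate 3. Averaged over a list or family described below, log2 CPM spanned at most 0.394 among the white light libraries (glucosinolate list) and 0.327 among the shade libraries (ZIP metal transporters). The label of whole seedlings was looked at through marker genes, and markers of mesophyll, root, guard cell, phloem and shoot meristem were all present. The summed level of 8 root markers was 174 to 198 CPM in white light and 189 to 191 CPM in shade. Among the meristem markers WUS and CLV3 were too low to be tested. In whole seedlings, fewer cells of a type and less RNA per cell cannot be told apart.

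Shade changed a large part of the transcriptome. Of 19711 tested genes 11716 passed the threshold (59.4%, edgeR quasi-likelihood test, adjusted p under 0.05), 5726 higher in shade (29%) and 5990 lower (30.4%), so a call by itself says little about any one list. The threshold and a change of at least 2-fold were met by 4731 genes (24%), 1957 higher (9.93%) and 2774 lower (14.1%). The median log2 change of all genes was -0.02, and the middle of the distribution ran from -0.59 to 0.49 between the quartiles. Falls were more numerous at every size and more so at the extremes: 431 genes rose and 748 fell at least 4-fold, and 21 rose and 67 fell at least 32-fold. By their share of the CPM both sets were of like size. The genes that rose at least 2-fold held 6.14 to 6.71% of the CPM of a white light library and 22.6 to 23.1% of a shade library, and those that fell held 20.2 to 21.2% and 7.12 to 7.53%.

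The largest fitted rise was that of SEN1 (AT4G35770), a dark-inducible gene annotated as a rhodanese-like protein, which read 21.9, 33.9 and 25.4 CPM under white light and 5077, 5074 and 4572 CPM under shade. Every shade library lay far above every white light library, and the log2 change was 7.5 ± 0.30 (SE, edgeR adjusted p = 1.56e-10). AT3G15450, annotated as an aluminium-induced protein and another gene known from dark-treated leaves, read 91.2, 144 and 91.1 CPM under white light and 4985, 4777 and 4608 CPM under shade. Both were among the 10 genes with the highest CPM of those changed at least 2-fold, together with the asparagine synthetase gene ASN1, the wall enzyme gene XTH15 and the carbonic anhydrase gene CA2 (1.27 log2). The other 5 of these 10 fell: the Rubisco small subunit gene RBCS1A (from 14128 to 5649 CPM), the Rubisco activase gene RCA, the light-harvesting gene CAB3 (-1.09 log2), GAPB and FBA2. RBCS1A and CAB3 belong to families of near-identical copies, between which reads may have been divided.

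The other large rises were of several kinds. XTH15, a xyloglucan-modifying wall enzyme, rose by 7.05 ± 0.24 log2 and THA1, a threonine aldolase, by 6.40 ± 0.26. Of the small heat shock proteins, HSP23.6-MITO and HSP17.6A rose by 6.0 and 5.35 (7.20 in HSP17.6A without white light replicate 3), and BT1, a BTB and TAZ domain protein, by 5.31. ST2A, a sulphotransferase known to act on hydroxyjasmonate, rose from 6.75 ± 0.913 to 191 ± 8.03 CPM (SD, n = 3), a log2 difference of 4.82 ± 0.16. MIOX4, a myo-inositol oxygenase gene, rose by 4.89 (6.11 without white light replicate 1 and 4.30 without white light replicate 3), AT5G14470, a GHMP kinase family gene, by 4.92, and AT4G25580, annotated as a CAP160 protein, by 5.48. The uncharacterised gene AT1G15840 had 1 count in white light and 201 in shade, a ratio of 200 (exact 95% interval 35.6 to 7.95e+03). AT2G45610, an alpha/beta hydrolase gene, had 3 and 261 counts, a ratio of 86.7 (29.4 to 423).

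Of the 20 largest falls, 8 belonged to the glucosinolate list described below or to its side-chain enzyme FMO GS-OX2, which had 203 counts in white light and 3 in shade, a ratio of 67.9 (exact 95% interval 22.9 to 332). AT3G04210, annotated as a disease resistance protein of the TIR-NBS class, had 185 counts in white light and 0 in shade. With a floor of 3 counts over the group in place of 0 the ratio was 61.9, and its exact 95% lower limit was 49.8. The uncharacterised gene AT1G13650 read 29.2, 26.6 and 34.9 CPM under white light and 0.0667, 0.0796 and 0.214 CPM under shade, a log2 change of -7.86 (-8.51 without shade replicate 3). The cysteine proteinase gene AT2G27420 fell by 6.78 ± 0.24 log2 (-7.53 without shade replicate 2). AK3, one of the aspartate kinases at the entry to lysine, threonine and methionine synthesis, went from 6.36 ± 0.782 to 0.0889 ± 0.154 CPM, a log2 change of -5.91 (-9.32 without shade replicate 1), and AT5G44400, a berberine-bridge-like oxidase gene, from 8.99 ± 0.902 to 0.0920 ± 0.0798 CPM (SD, n = 3). In each of these genes every shade library lay below every white light library, as the rule for naming them required.

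Short sequences shared by the promoters of the responding genes were counted in the 250 bases before the annotated start, on both strands, as a description with no test (RefSeq TAIR10.1 genome and annotation, 19620 promoters of tested genes). GATAAG, the I-box, was in 12.5% of all promoters, in 18.3% of those of genes at least 2-fold higher in shade and in 12% of those of genes at least 2-fold lower. TATCCA, an element known from sugar-repressed genes, was in 14.3%, 19.2% and 13.3%. These motifs can share bases, since tggataag holds GATAAG and, on the other strand, TATCCA, and such a shared stretch was in 1.24% of all promoters, 3.63% of the higher and 1.01% of the lower. The G-box CACGTG was in 7.61%, 10.6% and 7.53%, and GGCCCA, the site II element, in 16.4%, 14.2% and 13.3%. CATGTG, a PIF-binding E-box (11.3%, 11.4% and 12.4%), AATATCT, the evening element core (10.1%, 11.2% and 11.4%), ACTCAT, a bZIP element (11.9%, 12.7% and 12.4%), TTGACC, a W-box (12.1%, 12% and 12.2%) and AAACCCT, the telo-box (6.25%, 5.27% and 5.7%) differed less between the sets.

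**Figure D1:**
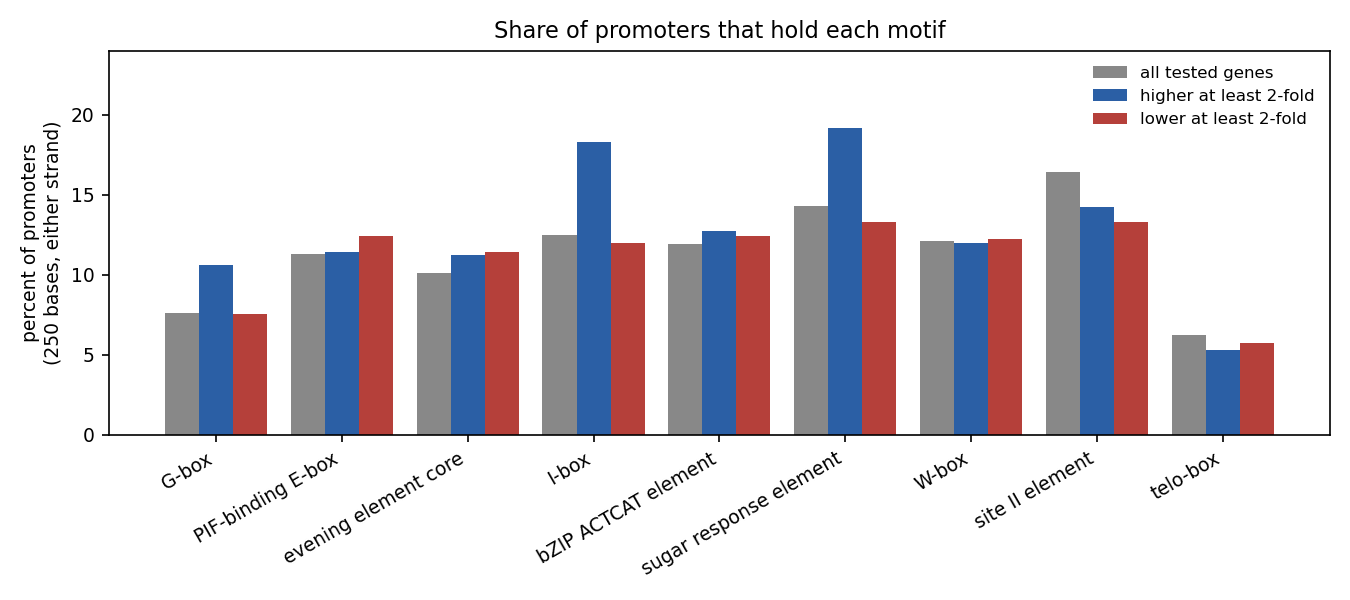
Percent of promoters (250 bases before the start) that hold each motif on either strand, for all tested genes, genes at least 2-fold higher and genes at least 2-fold lower in shade. The I-box (GATAAG) and the sugar response element (TATCCA) have higher shares among the genes that rose, at 18.3% and 19.2% against 12.5% and 14.3% of all promoters.

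The stretches that follow show where these motifs lie in genes that rose strongly. Of 29 candidates, the 20 largest rises and the branched-chain breakdown genes at least 2-fold higher, 24 had no other annotated gene in the 140 bases before their start, and 7 of the 24 (29.2%) held GATAAG or TATCCA there, against 14.2% of all 19620 promoters in the same window, a description with no test. Unlike the 24, the 19620 promoters were not limited to windows free of other annotated genes, so the shares are over unlike sets. The capitals mark these motifs, written as CTTATC or TGGATA where they lie on the other strand, and each sequence runs 5′ to 3′ on the strand of its gene and ends at the base before the start.
SEN1 (AT4G35770, chr4:16944738-16944877, plus strand): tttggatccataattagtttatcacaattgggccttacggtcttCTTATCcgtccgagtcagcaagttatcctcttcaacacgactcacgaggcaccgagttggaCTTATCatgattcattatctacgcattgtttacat
BCAT-2 (AT1G10070, chr1:3287947-3288086, plus strand): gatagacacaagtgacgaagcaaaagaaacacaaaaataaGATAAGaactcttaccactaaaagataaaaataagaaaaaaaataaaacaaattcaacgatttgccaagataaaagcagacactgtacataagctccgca
AT3G15450 (chr3:5212844-5212983, plus strand): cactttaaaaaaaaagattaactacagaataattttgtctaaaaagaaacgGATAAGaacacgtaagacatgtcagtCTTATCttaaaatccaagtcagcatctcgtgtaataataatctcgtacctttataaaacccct
AT5G14470 (chr5:4664682-4664821, minus strand): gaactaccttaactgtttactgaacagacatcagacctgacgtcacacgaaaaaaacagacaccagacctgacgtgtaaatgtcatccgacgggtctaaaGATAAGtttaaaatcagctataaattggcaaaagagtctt
MIOX4 (AT4G26260, chr4:13297555-13297694, plus strand): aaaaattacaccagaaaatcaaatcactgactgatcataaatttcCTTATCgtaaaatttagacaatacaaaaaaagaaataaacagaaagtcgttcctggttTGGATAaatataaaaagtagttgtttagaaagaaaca
AT1G21400 (chr1:7493073-7493212, plus strand): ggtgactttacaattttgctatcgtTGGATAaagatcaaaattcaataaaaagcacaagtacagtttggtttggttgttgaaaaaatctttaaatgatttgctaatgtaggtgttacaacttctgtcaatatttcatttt
BCE2 (AT3G06850, chr3:2160670-2160809, minus strand): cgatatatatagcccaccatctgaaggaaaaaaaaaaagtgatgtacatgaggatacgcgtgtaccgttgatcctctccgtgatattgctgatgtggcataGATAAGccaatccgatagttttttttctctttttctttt
SEN1 and AT3G15450, which have the highest shade CPM of the 7, each hold GATAAG at 2 places. No G-box lies in any of these 7 windows. A match is a run of letters and not a known binding site.

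Glucosinolate genes fell further, by their median, than the genes of any other pathway list, and nearly all of them fell. Glucosinolates are sulphur-containing defence compounds of the cabbage family, made from methionine (aliphatic) or tryptophan (indolic). Of 26 listed genes 25 were tested, 24 were lower, each by at least 2-fold (96%, against 14.1% of all genes), and the median log2 change was -3.73. The list's summed level was between 1034 and 1199 CPM in white light libraries and between 248.9 and 250.2 CPM in shade libraries. The exception was MYB51, a regulator of the indolic branch, at -0.19 ± 0.16 log2 (edgeR adjusted p = 0.343). MYB34, another regulator of that branch, fell by 1.31 ± 0.12, the smallest fall of the list that passed.

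The largest falls were in the methionine branch and its regulators MYB28 and MYB29. MYB28, the main regulator of aliphatic glucosinolates, read 40.7, 33.3 and 43.5 CPM under white light and 0.934, 2.23 and 1.42 CPM under shade, a log2 change of -4.70 ± 0.21 (SE, edgeR adjusted p = 3.65e-10). Its close relative MYB29 had 169 counts in white light and 0 in shade, a ratio of 56.5 at the floor of 3 counts over the group (exact 95% lower limit 45.4). The chain elongation enzymes fell in the same libraries. BCAT4, which removes the amino group of methionine, went from 208 counts to 1, a ratio of 209 (exact 95% interval 37 to 8.28e+03). MAM1, the condensing enzyme of the cycle, read 26.9, 18.7 and 28.2 CPM under white light and 0.333, 0.477 and 0.214 CPM under shade. The isomerase subunit gene IPMI2 went from 607 counts to 3 (ratio 203, 69.1 to 987), its partner IPMI1 fell by 6.22 ± 0.37 log2 (-7.07 without shade replicate 1), and the dehydrogenase gene IMD1 read 46.2, 29.5 and 50.1 CPM under white light and 0.267, 0.398 and 0.0712 CPM under shade. White light replicate 2 was the lowest of its group in IMD1, and the groups did not overlap. BAT5, the plastid transporter of the chain elongation intermediates, fell by 4.94 ± 0.33.

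The first core enzymes of the aliphatic branch were close to the detection limit in shade. CYP79F1 and CYP79F2, which turn the elongated amino acid into an aldoxime, went from 132 and 419 counts to 0 and 1. The ratio was 44.1 in CYP79F1 at the floor of 3 counts (exact 95% lower limit 35.4) and 420 in CYP79F2 (75 to 1.66e+04). These genes are near-identical neighbours, between which reads may have been divided. CYP83A1, the next enzyme, went from 779 counts to 3 (ratio 260, 88.8 to 1.27e+03). Later enzymes of the branch stayed above it: the sulphotransferase genes SOT17 and SOT18 were at 1.67 and 7.13 CPM in shade (log2 change -3.73 and -1.71) and the glucosyltransferase gene UGT74C1 (AT2G31790) at 12.8 CPM (-2.03). The indolic counterparts of the first enzymes fell too but stayed expressed. CYP79B2 fell by 3.04 ± 0.15 log2, CYP79B3 by 1.89 ± 0.13 and CYP83B1 by 2.75 ± 0.15. CYP83B1 read 201, 185 and 180.4 CPM under white light and 27.0, 26.3 and 31.0 CPM under shade. Of the enzymes that serve both branches, SUR1 fell by 1.64, UGT74B1 by 1.46 and GGP1 by 1.95, and the sulphotransferase gene SOT16 fell by 1.41. The difference between the branches is a description of these genes and was not tested.

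**Figure D2:**
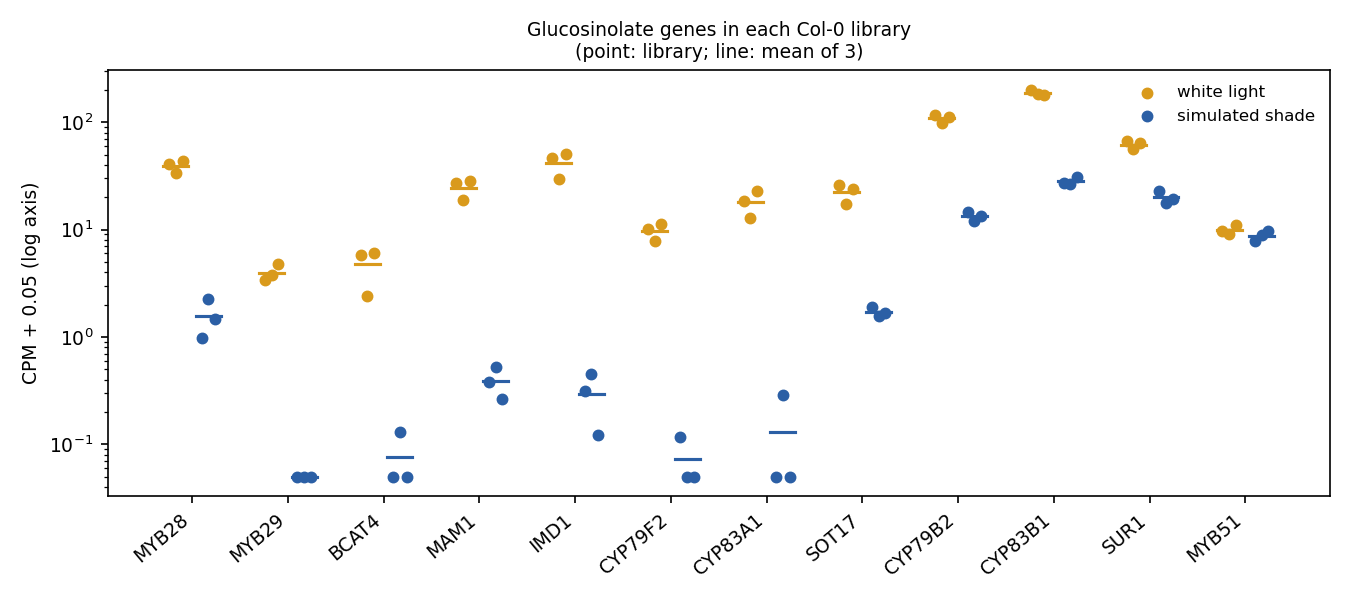
Level of 12 genes of glucosinolate synthesis in each of the 6 Col-0 libraries, as CPM + 0.05 on a log axis, with white light and shade libraries in separate colours. MYB29, BCAT4, CYP79F2 and CYP83A1 lie at or near 0 counts in shade, and the indolic genes CYP79B2 and CYP83B1 remain at 10 CPM or above.

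Most genes for sulphate uptake and assimilation fell as well, with 21 of 24 tested lower (87.5%, against 30.4% of all genes). Falls of at least 2-fold numbered 18 (75%, against 14.1%), no gene was higher, and the median was -1.66. Among the larger falls were the APR genes. APR1, which reduces activated sulphate, read 100.2, 85.7 and 103 CPM under white light and 7.0, 6.76 and 5.63 CPM under shade and changed by -3.90 ± 0.13 log2. APR2 and APR3 fell by 3.20 ± 0.22 and 3.17 ± 0.13, the kinase gene APK2 (AT4G39940) by 3.52 ± 0.14, and SIR, the sulphite reductase, by 1.49 ± 0.086. Of the ATP sulphurylase genes, which make activated sulphate, APS1, APS2 and APS3 fell by 1.43, 1.34 and 1.97, and APS4 was at 0.17 ± 0.090 (edgeR adjusted p = 0.116). Genes that usually rise when sulphur is short fell here: LSU2 by 3.33 ± 0.28, SDI1 (AT5G48850) by 2.41 ± 0.26 and BGLU28 from 65 counts to 2 (ratio 32.6, exact 95% interval 8.67 to 275). GGCT2;1 (AT5G26220), an enzyme of glutathione breakdown, went from 417 counts to 3 (ratio 139, 47.4 to 679). The transporters moved less, SULTR1;2 by -0.96 and SULTR4;2 by -1.67, while SULTR1;1 at -0.080 ± 0.38 and SULTR2;1 at 0.16 ± 0.20 did not pass.

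Genes for the breakdown of branched-chain amino acids rose nearly as one. Leucine, isoleucine and valine lose their amino group to aminotransferases, their keto acids are oxidised in mitochondria by the branched-chain keto acid dehydrogenase, and electrons pass through ETF proteins to respiration. Of 17 tested genes 16 were higher (against 29% of all genes), 11 of them at least 2-fold (9.93%), with a median of 2.84. Their summed level was between 485.2 and 517.1 CPM in white light libraries and between 5754 and 5959 CPM in shade libraries.

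Every step of the route was represented. BCAT-2, one of the branched-chain aminotransferases, read 11.4, 11.1 and 9.85 CPM under white light and 945, 939 and 938 CPM under shade, a log2 change of 6.45 ± 0.12 (SE, edgeR adjusted p = 4.7e-13). The shade libraries were nearly equal and far above the white light libraries. The dehydrogenase subunit genes rose together: AT1G21400 (E1 alpha) by 4.35 ± 0.13, BCDH BETA1 by 2.84 ± 0.14, DIN4 (E1 beta) by 3.68 ± 0.10 and BCE2 by 3.1 ± 0.13. BCDH BETA1 overlaps AT1G55520 on the opposite strand by 278 bases, a gene at 36.0 CPM in white light and 46.1 CPM in shade. IVD, the isovaleryl-CoA dehydrogenase of the leucine branch, read 45.5, 46.8 and 45.9 CPM under white light and 654, 679 and 651 CPM under shade. MCCA, which carries the biotin of methylcrotonyl-CoA carboxylase, read 33.4, 41.3 and 31.4 CPM under white light and 1080.0, 1097 and 1045 CPM under shade, and its partner MCCB rose by 3.99 ± 0.086. Electrons leave through ETFQO, which rose by 3.34 ± 0.086, and the ETF subunit genes ETFA and ETFB rose by 0.67 and 1.45. ALDH6B2, of the valine branch, rose by 2.56 ± 0.10. The second E1 alpha gene AT5G09300 was at -0.072 ± 0.20 (edgeR adjusted p = 0.78), and BCAT-1, the mitochondrial aminotransferase, rose by 0.47 ± 0.10.

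Genes for synthesis of the same amino acids went the other way, with 7 of 11 lower and 1 higher. The lower share was 63.6%, against 30.4% of all genes, and the median was -0.53. OMR1, the threonine deaminase at the entry to isoleucine, fell by 1.47 ± 0.13 and AT3G23940, dihydroxyacid dehydratase, by 1.23 ± 0.14. The chloroplast aminotransferase gene BCAT3 fell by 0.83 ± 0.086. The exception was IPMS1 (AT1G18500), the first enzyme of leucine synthesis, which rose by 0.89 ± 0.15 while its sister IPMS2 (AT1G74040) was at -0.21 ± 0.18 (edgeR adjusted p = 0.327, and 0.00206 at -0.26 log2 without bbx28-5 shade replicate 2).

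**Figure D3:**
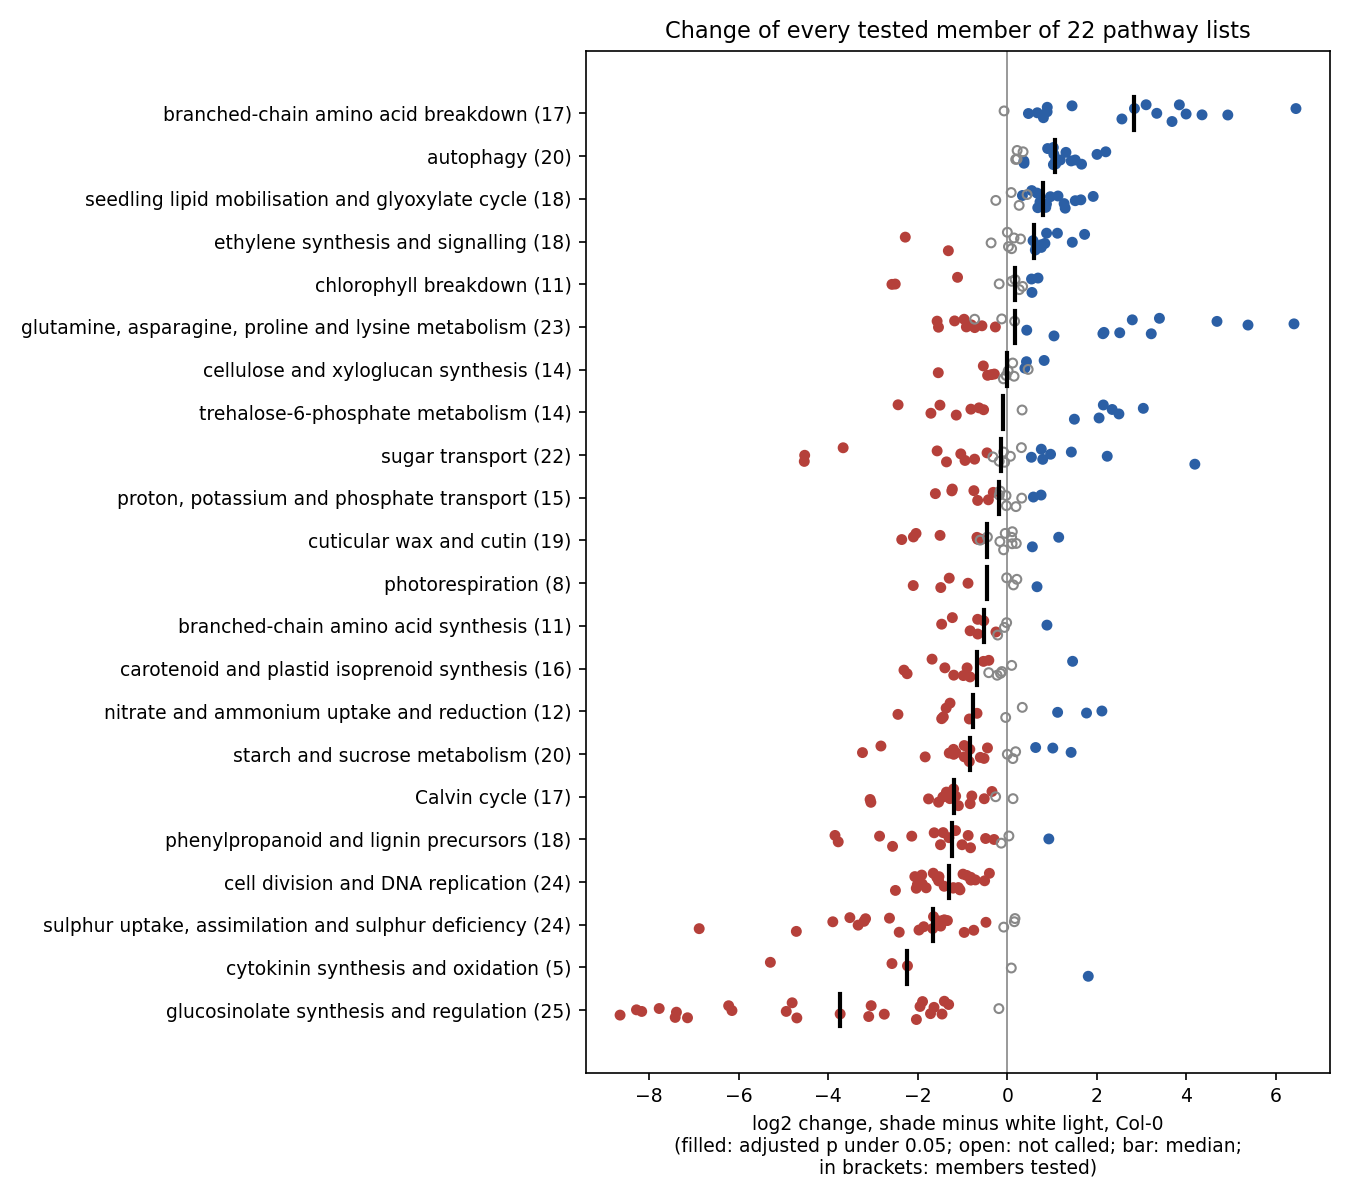
Log2 change (shade minus white light, Col-0) of every tested member of 22 pathway lists, one row per list, with filled points for members past the threshold, open points for the others and a bar at the list's median. Branched-chain breakdown, autophagy and lipid mobilisation lie to the right of 0, and glucosinolate, sulphur, cell division and Calvin cycle lists to the left.

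Other amino acid genes changed in both directions. Of 23 genes for glutamine, asparagine, proline and lysine metabolism and related breakdown, 11 were higher and 9 lower (47.8% and 39.1%, against 29% and 30.4% of all genes), 10 and 3 of them at least 2-fold. ASN1, the asparagine synthetase known from darkened leaves, read 91.9, 123.4 and 88.7 CPM under white light and 4134, 4226 and 4263 CPM under shade and rose by 5.38 ± 0.22 (SE, edgeR adjusted p = 1.52e-10). Its relatives ASN2 and ASN3 fell by 1.54 ± 0.13 and 1.18 ± 0.11. Glutamate dehydrogenases rose, GDH1 by 2.16 ± 0.17 and GDH2 by 2.79 ± 0.14, and so did PRODH1 (AT3G30775), a proline dehydrogenase gene, by 2.51 ± 0.15, whereas the second such gene, PRODH2 (AT5G38710), fell by 0.91 ± 0.23. Enzymes of tyrosine breakdown rose, HPD (AT1G06570) by 3.40 ± 0.096 and HGO by 4.68 ± 0.14, along with the lysine-degrading enzyme gene LKR (AT4G33150, 2.14 ± 0.20) and MGL, methionine gamma-lyase (3.22 ± 0.17). HGO overlaps AT5G54090 on the opposite strand by 790 bases, and that gene was at 4.06 CPM in white light and 2.52 CPM in shade. Of the genes that assimilate ammonium, the cytosolic glutamine synthetase genes GLN1;2 (AT1G66200) and GLN1;1 (AT5G37600) fell by 1.57 ± 0.100 and 0.73 ± 0.093 and the glutamate synthase gene GLU1 by 0.80 ± 0.12. GLN1;3 (AT3G17820) was at 0.16 ± 0.15 (edgeR adjusted p = 0.368) and GLN1;4 at -0.73 ± 0.35 (edgeR adjusted p = 0.0875), and GLN1;4 passed without shade replicate 2 (-1.07, adjusted p = 0.0322) or bbx28-5 shade replicate 2 (-0.78, adjusted p = 0.0496). P5CS1, for proline synthesis under stress, fell by 0.96 ± 0.22, whereas P5CS2 rose by 1.04 ± 0.13.

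Of 12 tested genes for nitrogen uptake and reduction 3 were higher and 7 lower (25% and 58.3%, against 29% and 30.4% of all genes). The 2 nitrate reductase genes rose, NIA1 by 2.11 ± 0.14 and NIA2 by 1.77 ± 0.10, and NIA1 read 229.8, 265 and 224 CPM under white light and 903, 1137 and 1073 CPM under shade. NIR1, the nitrite reductase that follows them in the pathway, read 352, 335 and 334 CPM under white light and 123.2, 143 and 131 CPM under shade and fell by 1.37 ± 0.13. The root-to-shoot nitrate transporter gene NRT1.5 rose by 1.12 ± 0.097, while NRT1.1, the nitrate transporter and sensor, fell by 1.47 ± 0.12. The ammonium transporter genes AMT1;2, AMT1;3 and AMT2 fell by 2.44 ± 0.11, 1.43 ± 0.23 and 1.28 ± 0.29, and the vacuolar exchanger gene CLC-A was at -0.036 ± 0.092 (edgeR adjusted p = 0.76).

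Trehalose-6-phosphate is a signal of sucrose supply, and the genes around it separated by class. Of 14 tested genes 6 were higher and 7 lower (42.9% and 50%, against 29% and 30.4% of all genes). TPS1, the active synthase, read 76.4, 75.5 and 71.7 CPM under white light and 12.7, 16.2 and 12.3 CPM under shade and fell by 2.44 ± 0.14. The class II genes, whose products are thought to be regulatory, mostly rose: TPS11 by 3.04 ± 0.16, TPS10 by 2.49 ± 0.12, TPS8 by 2.15 ± 0.15, TPS9 by 2.05 ± 0.15 and TPS6 (AT1G68020) by 1.5 ± 0.10. TPS11 read 32.7, 37.3 and 35.3 CPM under white light and 285, 292 and 289 CPM under shade, with no overlap between groups. TPS5, of the same class, fell by 1.5 ± 0.12, and TPS7 was at 0.33 ± 0.41 (edgeR adjusted p = 0.511, and 0.000342 at 0.28 log2 without bbx28-5 shade replicate 2). The trehalase gene TRE1 rose by 2.34 ± 0.18, and all 5 phosphatase genes tested fell, TPPB most (-1.71 ± 0.22).

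Of 22 sugar transport genes 7 were higher and 9 lower (31.8% and 40.9%, against 29% and 30.4% of all genes), so that single genes rather than the list are described. STP1, a hexose importer of the plasma membrane, read 59.6, 65.6 and 55.8 CPM under white light and 1062, 1151 and 1088 CPM under shade and rose by 4.19 ± 0.10 (SE, edgeR adjusted p = 2.9e-12). STP14 rose by 2.23 ± 0.10, the sucrose exporter gene SWEET12 by 1.43 ± 0.12 and ERDL6, of the vacuole, by 0.97 ± 0.090. The falls were in SWEET15 (AT5G13170), which fell from 7.91 ± 5.66 to 0.332 ± 0.0835 CPM (SD, n = 3), a log2 difference of -4.53 (-3.74 without white light replicate 3), in SWEET13, with 57 counts in white light and 2 in shade (ratio 28.6, exact 95% interval 7.56 to 242), and in GPT2, a plastid glucose-phosphate transporter known to follow high light and sugar (-3.67 ± 0.65, and -5.16 without shade replicate 3). TPT (AT5G46110), the exporter of photosynthate from the chloroplast, fell by 1.04 ± 0.11. The phloem loader gene SUC2 was at -0.059 ± 0.094 (edgeR adjusted p = 0.612).

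Genes of starch and sucrose enzymes mostly fell, 14 lower and 3 higher of 20 (70% and 15%, against 30.4% and 29% of all genes). The median was -0.84. SPS4F (AT4G10120), a sucrose phosphate synthase, read 101, 90.1 and 100.1 CPM under white light and 9.20, 11.5 and 10.3 CPM under shade and fell by 3.23 ± 0.15, and the granule-bound starch synthase gene GBSS1 fell by 2.82 ± 0.13. Genes of synthesis (ADG1, -1.20 ± 0.090) and of degradation (SEX1, -0.84 ± 0.17, and DPE2, -1.83 ± 0.087) were among the falls. The rises were BAM1 (AT3G23920, 0.63 ± 0.12), BAM9 (AT5G18670, 1.02 ± 0.092) and the cytosolic invertase gene CINV1, which cleaves sucrose and rose by 1.43 ± 0.16.

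Genes for reserve use and recycling rose. Lipid mobilisation and the glyoxylate cycle are the route by which seedlings turn seed oil into sugar. Of 18 listed genes 14 were higher (77.8%, against 29% of all genes) and none lower. The median was 0.79, and 1 gene was lower without bbx28-5 shade replicate 2. ACX4, a peroxisomal acyl-CoA oxidase, read 190.1, 195 and 185 CPM under white light and 723, 715 and 719 CPM under shade, and the thiolase gene KAT2 (AT2G33150) rose by 1.52 ± 0.092. The entry and the glyoxylate enzymes rose less, the lipase gene SDP1 by 0.86 ± 0.14, ICL by 0.96 ± 0.22 and MLS by 0.68 ± 0.18. Of 20 autophagy genes 16 were higher (80%, against 29% of all genes), 13 at least 2-fold (65%, against 9.93%). None was lower, and the median was 1.06. All 9 tested ATG8 genes, whose products coat the forming vesicle, rose, by 0.90 (ATG8G) to 2.2 (ATG8E), and ATG8E read 67.3, 81.5 and 69.2 CPM under white light and 352, 335 and 315 CPM under shade. ATG5 rose by 1.52 ± 0.10, the cargo receptor gene NBR1 by 1.08 ± 0.088 and ATI1 by 1.66 ± 0.13. The kinase and membrane genes ATG1A, ATG7, ATG9 and ATG13B did not pass, with 0.19, 0.22, 0.22 and 0.35, and ATG7 passed without white light replicate 2 (0.31, edgeR adjusted p = 0.029). Fitted on the 6 Col-0 libraries alone, ATG1A (adjusted p = 0.0211), ATG9 (0.0118) and ATG13B (0.0372) passed.

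Genes of photosynthetic carbon metabolism mostly fell. Of 17 Calvin cycle genes 15 were lower (88.2%, against 30.4% of all genes), 11 at least 2-fold (64.7%, against 14.1%). None was higher, and the median was -1.20. CP12-2, a small regulator of the cycle, read 126, 134 and 141 CPM under white light and 14.7, 18.8 and 14.7 CPM under shade and fell by 3.06 ± 0.19, while CP12-1 was at 0.13 ± 0.11 (edgeR adjusted p = 0.347). RBCS1B fell by 3.05 ± 0.19 and RBCS3B by 0.83 ± 0.14, and RBCS2B was at -0.26 ± 0.18 (edgeR adjusted p = 0.232, and 0.000261 at -0.31 log2 without bbx28-5 shade replicate 2). These 3 lie side by side in near-identical copies, so their separate values are uncertain. The transketolase gene TKL1 (AT3G60750) fell by 1.76 ± 0.099, SBPASE by 1.15 ± 0.11 and RCA by 1.44 ± 0.095. Photorespiration genes were uneven, with 4 lower and 1 higher of 8 (50% and 12.5%, against 30.4% and 29% of all genes). There were 2 higher without bbx28-5 shade replicate 2. GLDP1, of glycine decarboxylase, fell by 2.1 ± 0.11 and GOX2 by 1.49 ± 0.14, AGT1 (AT2G13360), an aminotransferase of the peroxisome, rose by 0.66 ± 0.14, and GOX1 was at 0.14 ± 0.15 (edgeR adjusted p = 0.463). GOX1 and GOX2 are related genes at neighbouring loci, between which reads may have been divided, so their separate values are uncertain. All 4 mesophyll markers fell, and they share RBCS1A, GLDP1 and CFBP1 with these lists, so they are not independent of them.

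Among pigments and phenolics, 10 of 16 genes of carotenoid and plastid isoprenoid synthesis were lower and 1 higher. These shares were 62.5% and 6.25%, against 30.4% and 29% of all genes. PSY, phytoene synthase and the entry to carotenoids, read 384, 370.0 and 374 CPM under white light and 79.6, 84.2 and 75.5 CPM under shade and fell by 2.24 ± 0.085. LUT2, the lycopene epsilon-cyclase, fell by 2.31 ± 0.088, and ABA1, zeaxanthin epoxidase, by 1.39 ± 0.094. BETA-OHASE 2, a carotene hydroxylase, rose by 1.46 ± 0.12, and BETA-OHASE 1, which shares its function, was at 0.098 ± 0.12 (edgeR adjusted p = 0.486). In chlorophyll breakdown 3 of 11 were higher and 3 lower (27.3% each, near the 29% and 30.4% of all genes), with NYC1 at 0.69 ± 0.082 and PPH at 0.55 ± 0.12 against CLH1 at -2.58 ± 0.11 and SGRL (AT1G44000) at -2.50 ± 0.13.

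Of 18 genes for phenylpropanoids and lignin precursors 15 were lower (83.3%, against 30.4% of all genes) and 1 higher. Falls of at least 2-fold numbered 11 (61.1%, against 14.1%), and the median was -1.23. F5H (AT4G36220), the hydroxylase toward sinapate and syringyl lignin, read 165, 138 and 147 CPM under white light and 8.80, 12.4 and 11.7 CPM under shade and fell by 3.78 ± 0.14. 4CL3, the ligase that serves flavonoids, fell by 3.85 ± 0.24 and PAL1 and PAL2, the entry enzymes, by 1.49 ± 0.14 and 1.43 ± 0.18. SNG1, which forms sinapoylmalate, the ultraviolet screen of leaves, read 445, 485 and 491 CPM under white light and 869, 927 and 907 CPM under shade and rose by 0.93 ± 0.079. UGT84A2, which makes the sinapate ester used by SNG1, fell by 2.13 ± 0.14. In the wax and cutin list 8 of 19 were lower and 2 higher (42.1% and 10.5%, against 30.4% and 29% of all genes). LACS2 changed by -2.1 and CYP77A6 by -2.36, against 1.15 in the regulator gene MYB96.

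All 24 tested genes of the cell division and DNA replication list were lower in shade (against 30.4% of all genes), 16 at least 2-fold, with a median of -1.31. Among replication genes PCNA1, the sliding clamp, read 16.5, 14.7 and 13.6 CPM under white light and 2.87, 1.83 and 3.13 CPM under shade and fell by 2.50 ± 0.18, the helicase subunit genes MCM7 (AT4G02060) and MCM2 fell by 2.07 ± 0.13 and 1.65 ± 0.13, and TSO2, which makes deoxynucleotides, by 2.01 ± 0.11. MCM7 (symbol PRL in the annotation) overlaps AT4G02050 on the opposite strand by 437 bases, a gene at 30 CPM in white light and 30.8 CPM in shade. Of the mitotic genes CYCB1;4 fell by 1.90 ± 0.15 and the kinesin gene HIK by 2.03 ± 0.15, and the D-type cyclin genes CYCD3;1 and CYCD3;3 fell by 0.81 ± 0.099 and 0.81 ± 0.12. The smallest changes were -0.40 ± 0.13 in PLE and -0.51 ± 0.12 in CDKB2;2. The call of PLE was lost without white light replicate 3 (-0.32, edgeR adjusted p = 0.0773) or shade replicate 3 (-0.37, adjusted p = 0.057). Of 5 tested meristem and leaf primordium markers ANT fell by 1.29 ± 0.16 and KNAT1 by 0.91 ± 0.13, and STM and AIL6 did not pass, AIL6 at -0.24 ± 0.15. CLV1 was at 0.58 ± 0.21 (edgeR adjusted p = 0.0306), a call lost without white light replicate 1 (adjusted p = 0.134) or 2 (0.0716) and without shade replicate 2 (0.109) or 3 (0.0555), and with total-count scaling (0.0636). The summed level of these markers was 83.0 to 92.7 CPM in white light and 79.2 to 90.5 CPM in shade, and their part in the fall of the division genes was not tested.

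**Figure D4:**
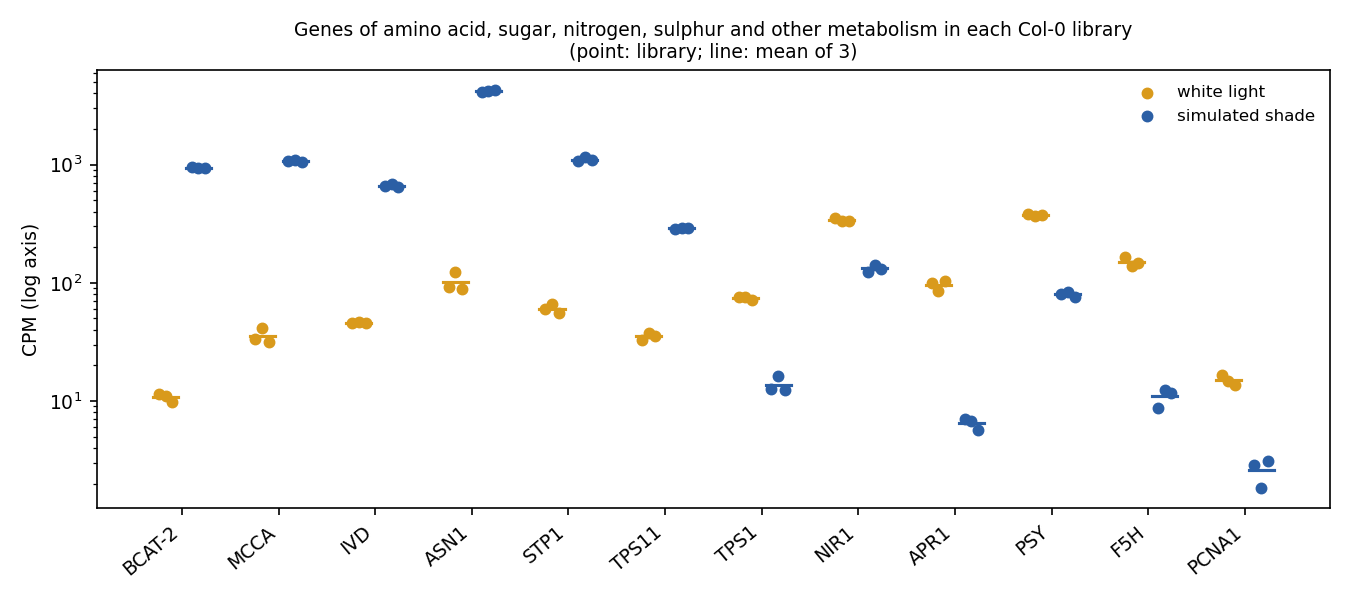
Level of 12 genes in each of the 6 Col-0 libraries, as CPM on a log axis, with white light and shade libraries in separate colours. The breakdown genes BCAT-2, MCCA and IVD, ASN1, STP1 and TPS11 are higher in all shade libraries, and TPS1, NIR1, APR1, PSY, F5H and PCNA1 lower.

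Of hormone and wall genes outside auxin, ethylene genes tended upward, 10 higher and 2 lower of 18. These shares were 55.6% and 11.1%, against 29% and 30.4% of all genes. The oxidase gene ACO3 (AT1G12010) rose by 1.73 ± 0.23, and among the receptors ERS2 rose by 1.45 ± 0.11 and ETR2 by 0.84 ± 0.22. EIN3, the main transcription factor of the pathway, rose by 1.12 ± 0.078 and its degrader gene EBF2 by 0.88 ± 0.12. ACS4, a synthase, fell by 2.28 ± 0.23 and ACO1 (AT2G19590) by 1.32 ± 0.27. Of 5 tested cytokinin genes the synthesis gene IPT3 fell by 2.23 ± 0.21, the oxidase gene CKX7 by 2.58 ± 0.23 and CKX4 from 97 counts to 2 (ratio 48.6, exact 95% interval 13.1 to 407). CKX5, another oxidase gene, rose by 1.81 ± 0.22, and it overlaps AT1G75440 on the opposite strand by 665 bases, a gene that was at 7.14 CPM in white light and 14.2 CPM in shade. The cellulose and xyloglucan list had a median of 0, with 3 higher and 5 lower of 14 (21.4% and 35.7%, against 29% and 30.4% of all genes). Its extremes were CESA5 at -1.54 ± 0.21 and XXT1 (AT3G62720) at 0.82 ± 0.15. Only 1 gene of the list was higher without white light replicate 1 or 3 or shade replicate 1, and 2 or 3 were lower without shade replicate 1 or 3 or white light replicate 2.

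Proton, potassium and phosphate transport genes were higher in 2 and lower in 7 of 15 (4 higher without bbx28-5 shade replicate 2). These shares were 13.3% and 46.7%, against 29% and 30.4% of all genes. PHT1;4, a phosphate importer, fell by 1.61 ± 0.14, and the guard cell potassium channel gene GORK rose by 0.75 ± 0.11. The proton pump gene AHA1 (AT2G18960) was at -0.028 ± 0.11 (edgeR adjusted p = 0.846).

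Transcription factor families were collected by name and annotation, and their shares of changed members are read against those of all genes (29% higher, 30.4% lower). Of 15 tested heat stress factor genes 10 were higher (66.7%) and none lower, 6 at least 2-fold. HSFA2 rose by 3.46 ± 0.46, HSFA3 by 2.13 ± 0.15 and HSFB2B (AT4G11660) by 1.62 ± 0.12. HSFB2B overlaps AT4G11670 on the opposite strand by 308 bases, a gene at 12.2 CPM in white light and 14.0 CPM in shade. HSFA2, which amplifies the heat response, read 1.15, 1.46 and 1.33 CPM under white light and 13.1, 16.5 and 13.9 CPM under shade. Of 34 bZIP genes 19 were higher (55.9%) and 6 lower. bZIP1, known to act in the SnRK1 response to low energy, read 12.9, 18.7 and 16.5 CPM under white light and 97.2, 104 and 101 CPM under shade and rose by 2.65 ± 0.13, and GBF2, a G-box binding factor, by 2.54 ± 0.13. GBF6 (bZIP11), another member of the sugar-responsive group, fell by 1.89 ± 0.19, and bZIP44 by 1.0 ± 0.15.

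Of 17 TCP genes 8 were lower and 2 higher, with 6 falls and no rise of at least 2-fold. TCP4 and TCP10, of the class that restrains leaf growth, fell by 2.16 ± 0.17 and 1.58 ± 0.13, and AT1G35560 by 2.72 ± 0.15. TCP4 read 21.7, 18.3 and 25.2 CPM under white light and 4.2, 4.77 and 5.70 CPM under shade. SPL genes, which time phase change, were lower in 4 of 10 and higher in 1, SPL9 by -2.91 and SPL11 by -1.61 against AT5G43270 (SPL2) by 0.44. The higher counts were small and moved with single libraries: 1 TCP gene was higher without white light replicate 1 or 2 or shade replicate 3, 2 SPL genes without white light replicate 2 or shade replicate 2, and 4 of each family without bbx28-5 shade replicate 2.

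The bHLH family had 30 higher and 34 lower members of 101 tested. Beside PIL1 (3.41 ± 0.23) and HFR1 (2.71 ± 0.100), which are phytochrome-interacting-factor targets, bHLH121, a regulator of iron uptake, read 26.5, 28.2 and 28.5 CPM under white light and 157, 152 and 156 CPM under shade and rose by 2.48 ± 0.14. The largest fall was that of bHLH071, which read 19.1, 16.2 and 17.7 CPM under white light and 0.400, 0.557 and 0.570 CPM under shade (-5.10 ± 0.18), and PRE1, a growth-promoting member, fell by 2.69 ± 0.26. Among 81 MYB and related genes 23 were higher and 22 lower. RVE7 (AT1G18330) rose by 3.48 ± 0.12, RVE2 by 2.12 ± 0.15 and LCL1 (RVE4) by 1.95 ± 0.10, all of the clock-related class, against MYB28, MYB95 (-2.80 ± 0.31) and MYB4, a repressor of phenylpropanoid genes (-1.38 ± 0.14). MYB95 overlaps AT1G74440 on the opposite strand by 933 bases, a gene at 0.801 CPM in white light and 0.905 CPM in shade. AP2/ERF genes (24 higher, 18 lower of 71) were at least 2-fold higher in 22.5% of members, against 9.93% of all genes, and included the cold regulator CBF2 (2.72 ± 0.29) and WRI4 (2.71 ± 0.17), a regulator of wax synthesis, among the rises, and SNZ (-2.87 ± 0.18), a floral repressor, among the falls.

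Other families had single members with large changes. Of 57 WRKY genes 15 were higher and 13 lower, with WRKY22 at 2.92 ± 0.23 and WRKY24 at -1.85 ± 0.26. Of 73 NAC genes 22 were higher and 17 lower. NAP and ATAF1, both known from leaf senescence, rose by 2.68 ± 0.19 and 2.00 ± 0.12, and NAC083 fell by 1.13 ± 0.12. In the homeobox genes named HB, HAT or HDG, 18 higher and 15 lower of 50, HB-2 (ATHB2) rose by 3.07 ± 0.13 and HB5 fell by 1.30 ± 0.089. GATA4 rose by 2.35 ± 0.10 and GATA2 by 1.35 ± 0.12, while GATA7 fell by 2.46 ± 0.20 (6 higher and 8 lower of 25). In the DOF family (8 and 9 of 28, and 25% at least 2-fold higher) AT1G69570 rose by 2.63 ± 0.23 and CDF1 (AT5G62430), a flowering repressor of the clock, fell by 0.76 ± 0.14. NF-Y subunit genes were higher in 12 of 27 and lower in 6, NF-YB8 at 1.19 and NF-YA2 at -0.68. GRAS genes were higher in 13 of 32 and lower in 10, with the gibberellin repressor gene GAI at 1.11 ± 0.10. Auxin response factor genes (3 and 3 of 15) changed by less than 2-fold where they passed, ARF18 at 0.83 and ARF8 at -1.0. MADS genes were higher in 6 of 24 and lower in 2, with AGL87 at -2.42, and LBD genes in 3 and 2 of 18, with LBD41, known from low oxygen, at 1.74. Without shade replicate 1 the lower homeobox genes numbered 9, and without white light replicate 1 only 3 MADS genes were higher. Leaving out white light replicate 1, 2 or 3 or shade replicate 3, each alone, left 3 GATA genes higher. Without bbx28-5 shade replicate 2, 5 MADS and 5 auxin response factor genes were lower.

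**Figure D5:**
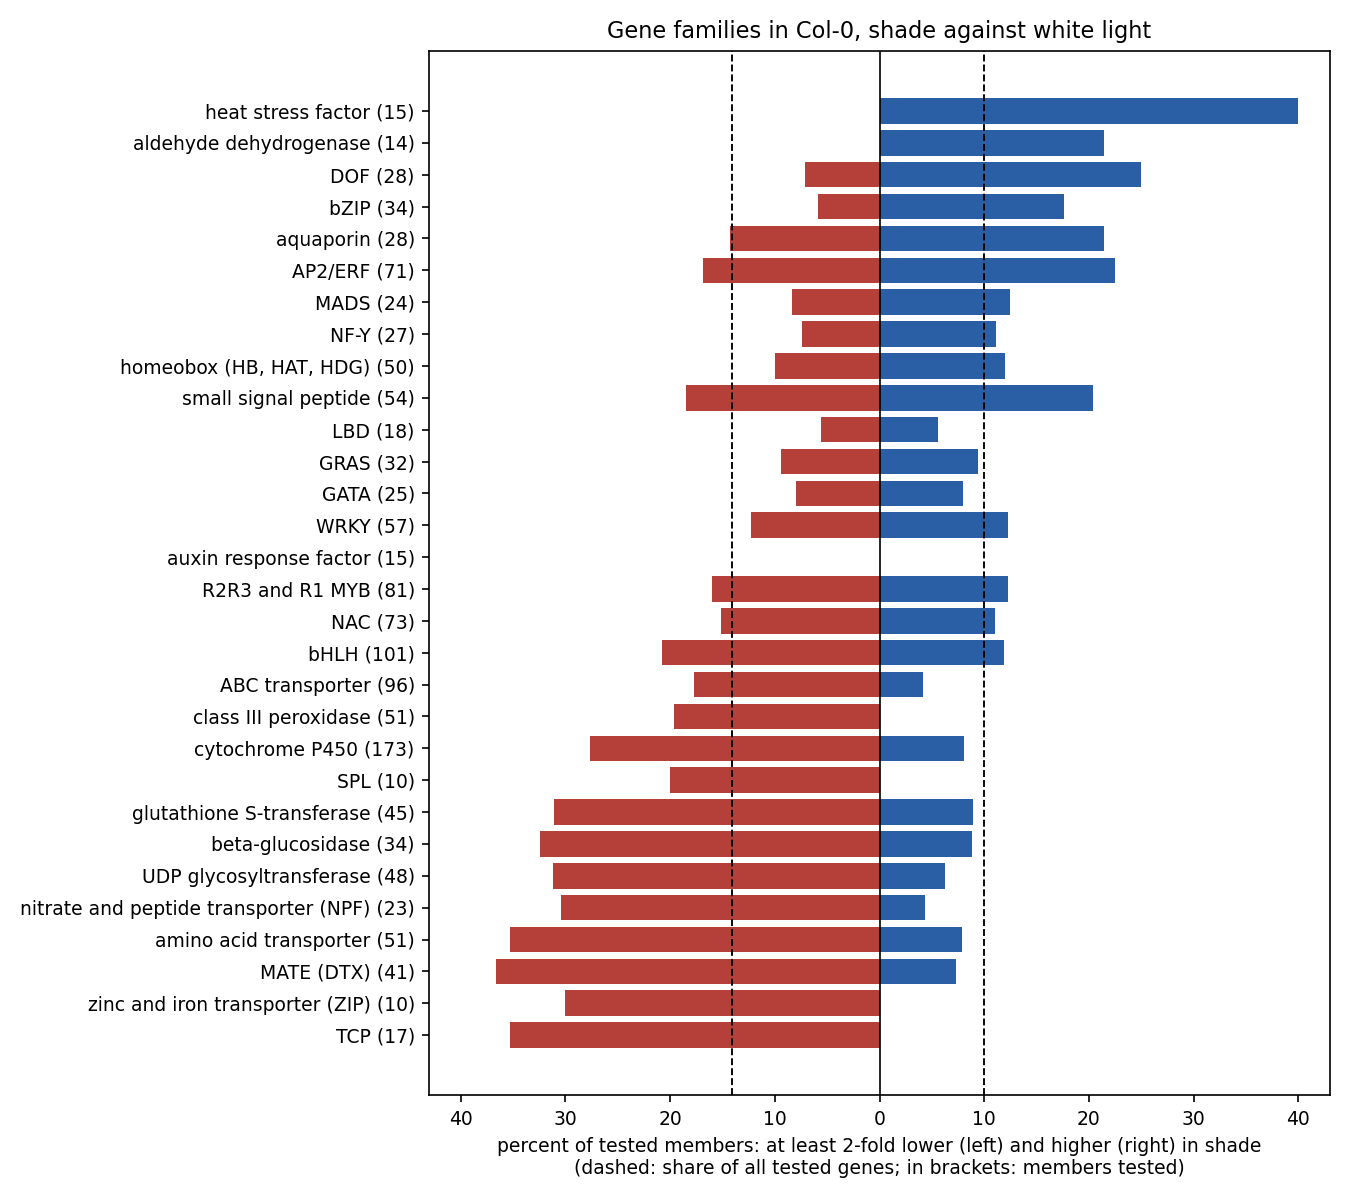
Percent of tested members at least 2-fold higher (right) and at least 2-fold lower (left) in shade for 30 gene families, with dashed lines at the shares of all tested genes, 9.93% higher and 14.1% lower. Heat stress factors lie far to the right, and P450, MATE, amino acid transporter and TCP families to the left.

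Enzyme families of secondary metabolism were lower more often than all genes, in 39.2% (class III peroxidase) to 47.1% (beta-glucosidase) of members against 30.4%. Of 173 tested cytochrome P450 genes 41 were higher and 73 lower, 14 and 48 at least 2-fold (against 9.93% and 14.1% of all genes). Outside the glucosinolate genes, CYP71A20 (3.83 ± 0.25), CYP81D11 (2.71 ± 0.14) and CYP94B3, which inactivates jasmonoyl-isoleucine (2.27 ± 0.18), rose. CYP81D11 read 49.6, 55.0 and 43.5 CPM under white light and 342, 313 and 315 CPM under shade. Glutathione S-transferase genes were lower in 21 of 45 and higher in 7. GSTU20 read 97.6, 71.0 and 114 CPM under white light and 2.4, 3.58 and 2.99 CPM under shade and fell by 4.99 ± 0.20, and ERD9 fell by 2.95 ± 0.15, against a rise of 1.12 ± 0.099 in GSTU5. UDP glycosyltransferase genes were lower in 21 of 48 and higher in 11, with UGT78D1, of flavonol glycosides, at -2.52 ± 0.16 and UGT73B1 at 2.35 ± 0.36. Beta-glucosidase genes were lower in 16 of 34 and higher in 9, with BGLU1 at -3.45 ± 0.22, BGLU40 at -3.16 ± 0.12 and BGLU11 at 1.75 ± 0.12. Class III peroxidase genes were lower in 20 of 51 and higher in 8, none of these at least 2-fold, with AT2G34060 at -2.19 ± 0.16 and AT4G33420 at 0.91 ± 0.13, and 5 were higher without white light replicate 3 or shade replicate 1. The aldehyde dehydrogenase genes were the exception, 6 higher and 2 lower of 14 (5 lower without bbx28-5 shade replicate 2), led by ALDH6B2 and by ALDH7B4, which read 148, 156 and 187 CPM under white light and 928, 944 and 951 CPM under shade (2.52 ± 0.098).

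In 5 transporter families more members were lower than higher. Their lower shares ran from 40% (ZIP) to 53.7% (MATE), against 30.4% of all genes. Amino acid transporter genes (AAP, LHT, UMAMIT and ProT) were lower in 26 of 51 and higher in 8, 18 and 4 at least 2-fold. UMAMIT46 read 20.6, 19.0 and 19.3 CPM under white light and 1.27, 1.03 and 0.926 CPM under shade and fell by 4.17 ± 0.25, and the proline transporter gene ProT3 fell by 4.17 ± 0.42. AAP3, an amino acid permease, rose by 2.26 ± 0.24 and UMAMIT33 by 1.83 ± 0.15. MATE genes were lower in 22 of 41 and higher in 9, AT5G17700 by -3.18 and AT4G23030 by 1.19 as the extremes named by the rule. ABC transporter genes were lower in 42 of 96 and higher in 12. ABCG1 and ABCG15 rose by 2.14 ± 0.15 and 2.12 ± 0.15, and ABCG18 and ABCI20 fell by 2.56 ± 0.28 and 2.28 ± 0.12. In the nitrate and peptide transporter family 11 of 23 were lower and 4 higher, with PTR4 at -2.50 ± 0.15 and GTR1, which moves glucosinolates into the phloem, at -1.78 ± 0.11, and 2 were higher without white light replicate 1 or 3 or shade replicate 3. ZIP metal transporter genes were lower in 4 of 10 and higher in none, ZIP11 by -1.41 and ZIP1 by -1.36.

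Among aquaporins, unlike the families above, more members were higher than lower, 12 and 7 of 28. These shares were 42.9% and 25%, against 29% and 30.4% of all genes. At least 2-fold, 21.4% were higher, against 9.93% of all genes. The share at least 2-fold lower, 14.3%, was near the 14.1% of all genes. PIP3 (PIP2;7), of the plasma membrane, read 805, 798 and 729.9 CPM under white light and 2449, 2305 and 2213 CPM under shade and rose by 1.58 ± 0.10, RD28 by 1.71 ± 0.12 and PIP1C by 1.39 ± 0.090. PIP2;8 fell by 1.53 ± 0.17. The summed aquaporin level was between 8262 and 9295 CPM in white light libraries and between 15655 and 15935 CPM in shade libraries. RD28 has a near-identical neighbour, so its value is uncertain.

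Small signal peptide genes had 16 higher and 15 lower members of 54 tested (29.6% and 27.8%, near the 29% and 30.4% of all genes). RTFL21, of a family that limits cell proliferation along the organ axis when overexpressed, read 0.607, 0.537 and 0.533 CPM under white light and 30.3, 30 and 28.6 CPM under shade and rose by 5.70 ± 0.14. PSK4, a precursor of the growth peptide phytosulfokine, rose by 3.0 ± 0.14, while PSK5 fell by 1.45 ± 0.21. RGF9, of the root meristem growth factor family, read 80.3, 63.9 and 75.2 CPM under white light and 2.47, 1.51 and 1.64 CPM under shade and fell by 5.27 ± 0.21. CLE41, which acts on vascular stem cells, fell by 1.79 ± 0.18.

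The Col-0 response was set beside that of bbx28-5 through the interaction, the shade change in bbx28-5 minus that in Col-0. It passed for 2032 genes (10.3%), 1285 higher and 747 lower, and 860 of these were among the 4731 Col-0 genes changed at least 2-fold. The count depends on 1 bbx28-5 library: without bbx28-5 shade replicate 2, which stands apart from its group, 4545 genes passed. Without 1 Col-0 library 1130 (shade replicate 3) to 1413 genes (white light replicate 1) passed. The cell division list had 9 of 24 interaction calls below 0 (against 3.79% of all genes) and 1 above 0, so 9 of its falls were larger in bbx28-5, as in CYCB1;4 (-1.95 ± 0.30, edgeR adjusted p = 0.00171). NIA1, which rose by 2.11 in Col-0, changed by -0.20 in bbx28-5 (-2.31 ± 0.20, edgeR adjusted p = 4.34e-05). MAM1 fell by 6.15 in Col-0 and changed by -2.17 in bbx28-5 (3.98 ± 0.67, edgeR adjusted p = 0.00287). In the branched-chain breakdown list 5 of 17 calls were above 0 (against 6.52% of all genes) and none below, the largest in BCDH BETA1 (1.13 ± 0.19). In the autophagy list 7 of 20 were above 0 and none below. Without 1 Col-0 library these counts were 5 to 7 in cell division (5 without shade replicate 3), 4 or 5 in breakdown and 3 to 6 in autophagy (3 without shade replicate 3 and 4 without white light replicate 2). Trimmed-mean scaling factors were 0.79 to 0.867 in bbx28-5 shade libraries and 1.01 to 1.05 in Col-0 shade libraries, and scaling by total counts gave 3120 interaction calls. That scaling moved the median interaction of all genes from 0.05 to -0.25 and left 2 autophagy and 3 breakdown calls above 0 and 14 cell division calls below 0.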

How the data were processed

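Whole seedlings were profiled by RNA sequencing. Per the labels' protocols a stranded mRNA kit was used, and the submitters' processing notes name FastQC, HISAT, SAMtools, HTSeq and edgeR and the build TAIR10, with no versions. The deposited table holds raw counts per gene (32833 genes). A second deposited table, log2 CPM of 19724 genes that the authors filtered, was used only for its gene set as an alternative and was recomputed from the counts to within 5e-14.

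Counts were tested in R 4.3.3 with edgeR 4.0.16 (quasi-likelihood test, TMM scaling, filterByExpr, Benjamini-Hochberg adjustment over 19711 genes, which held 99.93% of the counts). All 12 libraries were fitted with 1 mean per group, and the contrast used the Col-0 groups. CPM values are scaled by TMM. Fold changes are log2 with an SE. This SE is the size of the log2 change divided by the square root of the quasi-likelihood F statistic. It was not taken from the fitted coefficients, and it is unreliable for very small changes and for groups with almost no counts. For PER4, for example, it was 2.55 beside an interaction of 0.00224. Ratios of few counts are scaled by the total counts of the groups and have exact intervals at 95%, which cover counting error only. DESeq2 1.42.0, other scalings, filters, sample sets, a replicate block and a promoter length of 150 bases were the alternatives. On simulated counts of 19464 genes the Col-0 contrast called 97% of genes changed by 1 on the log2 scale and 100% of those changed by 2. Only 200 genes were changed there, none of low level, and all genes had the same spread. These shares check the code and are not the sensitivity for the real counts.

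Genes named are the 20 largest rises and falls with no overlap between groups and a mean log2 CPM of at least 1, the 10 changed genes with the highest CPM, members of pathway lists with at least the largest change in each direction, up to 3 largest rises and 3 largest falls, under the same limits, of a family with at least 10 tested members, and members that went against their list. The comparison, lists and families were chosen with earlier results of these data known, and family membership was adjusted from RefSeq product names (50 genes dropped, 368 added). Family members with larger changes but a lower mean level are therefore not named. The ZAT family, with 9 tested members, is not described.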

Additional observations from a re-analysis of the deposited data

Results flagged for a closer look

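Of the 295 genes named in the text, 77 had a shade response in bbx28-5 that differed from that in Col-0. They passed the interaction test (edgeR quasi-likelihood test, adjusted p under 0.05), 50 above 0 and 27 below 0. Over all tested genes 2032 of 19711 passed it (10.3%). Genes were named in part for a large change in Col-0, which enters the interaction, so the share among them is not comparable. The values that follow are the interaction on the log2 scale, the response of bbx28-5 minus that of Col-0. In 76 of the 77 the interaction was also called without bbx28-5 shade replicate 2, and the exception was AT5G26220. The calls depended more on the Col-0 libraries. Without 1 of these, 15 (white light replicate 1) to 27 (shade replicate 3) of the 77 lost the call, and 20 lost it with total-count scaling.

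The fitted responses had opposite signs in the 2 genotypes in 4 of these genes, with an interaction of -2.31 in NIA1, 1.34 in bZIP44, 0.48 in SUC2 and 0.70 in PLE. NIA1 changed by 2.11 in Col-0 and -0.20 in bbx28-5, bZIP44 by -1.0 and 0.35, SUC2 by -0.06 and 0.42, and PLE by -0.40 and 0.30. In nitrogen and amino acid metabolism the interaction was -0.79 in NIA2, -0.77 in NIR1, -0.45 in NRT1.5, -0.53 in CLC-A, -0.89 in ASN2, 0.50 in GLN1;2 (AT1G66200), 0.90 in MGL and 1.21 in HGO. In branched-chain breakdown it was 0.88 in BCAT-1, 1.13 in BCDH BETA1, 0.56 in DIN4 and 0.73 in MCCB.

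Among glucosinolate and sulphur genes the interaction was 3.98 in MAM1, -0.88 in MYB34, -0.92 in CYP79B3, -0.52 in GTR1, -1.16 in APR2, 0.70 in APS1, 0.95 in SULTR1;2, 1.65 in LSU2 and 3.27 in AT5G26220. MAM1 changed by -6.15 in Col-0 and -2.17 in bbx28-5. In photosynthetic carbon metabolism it was above 0, at 0.62 in GAPB, 0.85 in RCA, 0.69 in FBA2, 0.94 in GOX1, 0.71 in GOX2, 0.64 in CA2 and 0.71 in APE2 (TPT). Sugar, starch and trehalose genes had 0.73 in STP1, 0.86 in GBSS1, 0.97 in SPS4F, -0.42 in DPE2, 0.85 in AT3G23920 (BAM1), -0.89 in TPS5 and -1.93 in TPPB.

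In the division genes it was below 0, at -1.95 in CYCB1;4, -1.49 in HIK and -0.94 in MCM2, PLE being the exception. Genes of pigments, phenolics and cytochromes P450 had -0.42 in PSY, 0.45 in NYC1, -1.65 in PAL1 and -1.69 in CYP71A20. Lipid mobilisation, autophagy and aldehyde dehydrogenase genes had 0.60 in PKT3 (KAT2), 0.68 in ATG8E and 0.85 in ALDH7B4, and aquaporin genes had 0.75 in PIP1C, 1.55 in RD28 and 0.91 in PIP3.

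Among transcription factor genes the interaction was 1.18 in ATAF1, 1.09 in NAP, 0.64 in HFR1, 0.53 in GAI, 0.63 in AT1G18330 (RVE7), -1.06 in MYB4, 0.90 in WRI4, 0.86 in GBF2, 0.69 in EIN3, 0.73 in NF-YB8, 0.74 in HSFB2B, 0.72 in HSFA3, 1.31 in LBD41, -0.75 in ARF8 and -4.48 in WRKY24. The other genes had 2.61 in RTFL21, 2.02 in GSTU20, 0.96 in BGLU11, -0.64 in BGLU40, 0.85 in AT4G33420, 0.78 in AT5G14470, -1.39 in BT1, -2.77 in MIOX4, -4.27 in AT1G15840 and -0.72 in AT1G19920 (APS2). The fitted values of genes with few counts in a group, such as AT1G15840 and AT5G26220, depend on the prior count.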

How the results depend on the processing

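The numbers of genes changed in Col-0 (11716 in all, 4731 at least 2-fold) stayed within 1.5 times under every alternative run, from 10414 without white light replicate 1 to 13902 without bbx28-5 shade replicate 2 for all changed genes, and higher genes made up 44.6 to 50.5% of the calls. The interaction count of 2032 was less stable: 3120 with total-count scaling, and 1130 to 4545 over the fits that left out 1 library (1277 and 1227 without white light replicates 2 and 3, 1350, 1303 and 1130 without shade replicates 1, 2 and 3, 4545 without bbx28-5 shade replicate 2). Equal replicate numbers did not pair the Col-0 libraries, with residual correlations of 0.018, -0.078 and -0.032, and a replicate block gave 11410, 4708 and 1527 calls. Of 4130 values of the named genes under the alternatives, none reversed, 7 lost and 16 gained the call. Fitting the 6 Col-0 libraries alone accounts for 10 of the gains (TPS7, IPMS2, RBCS2B, APS4, GOX1, SULTR2;1, GLN1;3, ATG1A, ATG9 and ATG13B). The 77 interactions of named genes lost it in 169 of 1001 values. Numbers of list members called moved by over 1.5 times in 70 of 1624 values. With 150 bases of promoter every motif share was lower. These bases lie within the longer stretch of the main count, so no share could rise and the fall tests nothing. TATCCA was in 8.71% of all promoters, 12.8% of the higher and 7.57% of the lower, and GATAAG in 7.81%, 12.4% and 7.57%. For both motifs the share of the higher set stayed above that of all promoters. The cause of the shifts in the calls was not tested. Depth limits the values of genes near 3 counts in a group.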
